A study of Mus musculus with 32 samples.

Results

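Of 51884 mouse transcript models, 184 were consistently more abundant in RNA recovered with proteins biotinylated across the whole neuron than in the lysate it came from. They were chosen from resting Pan-TurboID libraries alone. A transcript had to be 1000 nt or longer and under 8000 nt, average at least 200 reads over all libraries and be higher in the pulldown than in its input by at least 0.75 on the log2(CPM + 1) scale in each of 4 replicates, and uc008gfj.2 and uc008nqd.1 were left out by the rule. CPM here means reads per 1000000 reads outside the 3 dominant transcripts uc009sgd.1, uc012eno.1 and uc033jng.1. The length and read limits alone were met by 6359 transcripts, called eligible below. The TurboID-PSD95 libraries and all depolarized libraries entered the choice only through the limit on mean reads, and the enrichment was followed into them. That limit counted pulldown reads, so these libraries are not fully independent of the choice. Below, they are the libraries or settings that the rule did not use, or that did not choose the members, which refers to the pulldown difference.

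The libraries came from cortical neurons of CD-1 mouse embryos, kept in culture and transduced with doxycycline-inducible lentivirus. The virus carried TurboID fused to PSD95 (TurboID-PSD95), in a cassette that also held PSD95 UTRs, or TurboID with no localization signal (Pan-TurboID). All cultures, inputs and pulldowns alike, received cycloheximide for 2 min and then biotin for 30 min, and were UV crosslinked. Depolarized cultures were silenced for 2 h with tetrodotoxin and DL-AP5, exposed to 55 mM KCl for 1 h and rested for 30 min, and the sources used here do not state whether resting cultures were silenced too. The 2 states, 2 constructs and 2 fractions made 8 groups of 4 libraries, 32 in all, with biological replicates numbered by the sample titles. Pulldowns without biotin or without TurboID were not analysed here.

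TurboID is a promiscuous biotin ligase that tags proteins within a short reach of itself, and UV light joins RNA to proteins that touch it. Streptavidin beads therefore recover RNA by way of the tagged proteins, and the input gives the same RNA pool before selection. PSD95 is a scaffold of the postsynaptic density, the protein layer under excitatory synapses, whereas Pan-TurboID is free to label proteins throughout the cell. Neurons send many mRNAs into dendrites for local translation, and depolarization by KCl opens voltage-gated calcium channels and starts activity-dependent transcription.

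Library depth was uneven. Reads outside the 3 dominant transcripts ranged from 0.613 M to 17.6 M per library (M, 1000000 reads), and 4 libraries held under 2 M. For the 8 libraries titled replicate 2, the free-text descriptions give the other state, and the titles were followed. Without replicate 2, limma called 131, 150 and 134 members higher over input with PSD95 at rest, PSD95 after depolarization and Pan after depolarization. Of eligible transcripts it called 291, 346 and 216 higher in the same order, against 356, 422 and 253 with all replicates. The transcript identifiers matched 0 entries in the gene name tables used here, so members are given by identifier, neuronal and glial markers were not checked, and functions are not assigned. All 184 members passed the low-count filter of every test. Values are shares of a library, so that a larger amount of one RNA and a smaller amount of the others cannot be told apart.

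The members were near the eligible transcripts in length and in level per length, with somewhat fewer reads. Their median length was 3428.5 nt, from 1110 to 7429 nt, against 3626 nt for all eligible transcripts. They made up 4.35% of eligible transcripts of 3000 to 3999 nt, 2.38% of those of 1000 to 1999 nt and 2.26% of those from 6000 nt upwards. Per length, their median level was 10.5 TPM, against 11.5 TPM for the eligible ones. The median of mean reads per library was 346.6 for members and 412.4 for eligible transcripts. The most read member was uc007nwh.3 (3974 nt), with a mean of 11467.5 reads per library.

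The sharing of reads with other models, which the rule did not use, was common among the members. Salmon divides reads that match several transcript models among them, which leaves fractional counts. Only 1 of 184 members, or 0.543%, had whole-number reads (within 0.001) in every library, whereas 963 of 6359 eligible transcripts, or 15.1%, did. Among the 6173 other eligible transcripts, an enrichment of 0.75 or more in 4 of 4 replicates with PSD95 after depolarization was met by 4 of 962 with whole reads (0.416%) and by 95 of 5211 with shared reads (1.82%). With PSD95 at rest it was met by 2 (0.208%) and 73 (1.40%) of them. The difference between these shares was not tested. A member's value is therefore that of a transcript model as salmon apportioned reads to it, and the other models that shared those reads were not identified here.

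The sole member with whole reads, uc007xzz.2 (3189 nt), was named for that property after its values were seen. In the PSD95 libraries at rest it measured 27.7, 29.4, 27.7 and 22.1 CPM in the inputs of replicates 1 to 4 and 83.6, 110.0, 112 and 84.8 CPM in the pulldowns. After depolarization the PSD95 inputs gave 28.7, 15.5, 14.3 and 20.6 CPM and the pulldowns 68.4, 55.9, 69.1 and 73.0 CPM. The ranges of inputs and pulldowns did not overlap in either state. By limma the log2 difference was 1.72 ± 0.19 (SE; adjusted p = 2.39e-06) at rest and 1.40 ± 0.21 (adjusted p = 3.36e-05) after depolarization. With Pan after depolarization its inputs were 24.7, 27.4, 24.7 and 32.6 CPM and its pulldowns 62.5, 41.9, 65.7 and 59.5 CPM, a log2 difference of 1.00 ± 0.23 (limma adjusted p = 0.00634).

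In the resting Pan libraries that chose the members, the median of pulldown minus input over the 184 was 1.33, 1.63, 1.58 and 1.29 on the log2(CPM + 1) scale in replicates 1 to 4, against -0.05, -0.09, -0.11 and 0.00 for all eligible transcripts. This difference was set by the rule and is given as a description. Of the members, 169 also had a limma adjusted p under 0.05 in this contrast, where 4.93% of 34696 tested transcripts were called higher, and nothing is read from that count. The members with the largest smallest difference were uc007rcw.2 (6512 nt) at 3.89 and uc008djw.2 (7221 nt) at 2.43, both with under 1 read in at least 1 resting Pan input. Just inside the limit stood uc033jel.1 (2021 nt), whose smallest difference was 0.75, and uc008oys.1 (3024 nt), at 0.77. Just outside it stood uc009ifi.2 (1159 nt) at 0.7488 and uc008iyp.2 (3590 nt) at 0.7474. With PSD95 at rest, these last 2 differed in sign, as uc009ifi.2 averaged 1.65 and uc008iyp.2 averaged -0.48.

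**Figure D1:**
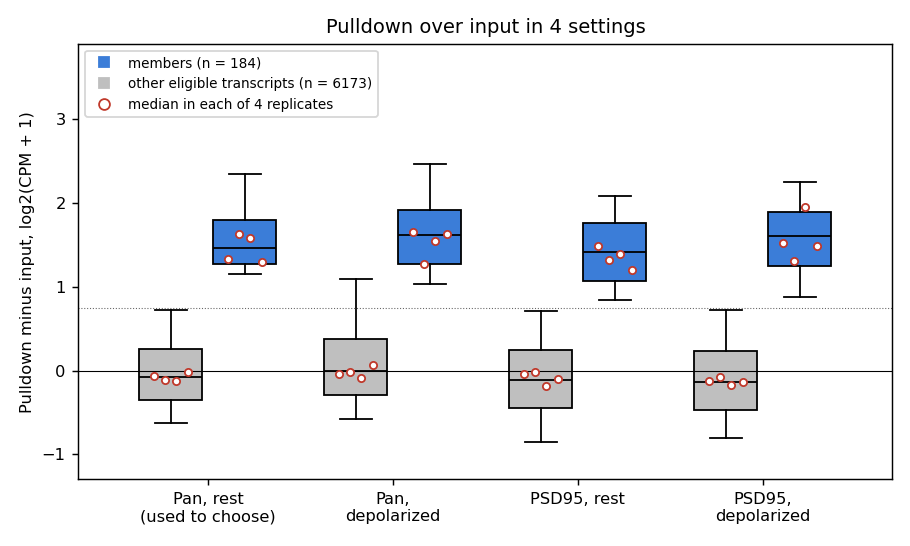
Pulldown minus input on the log2(CPM + 1) scale (vertical axis) in 4 settings (horizontal axis) for the 184 members and the 6173 other eligible transcripts. Boxes span the quartiles of transcript means over 4 replicates, whiskers the 10th to 90th percentiles, open circles the median in each replicate, and the dotted line the limit of 0.75; member medians stay between 1.20 and 1.95 in each replicate of the 3 settings that did not choose them.

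With TurboID-PSD95 at rest the members were again higher in the pulldown. Their median difference was 1.49, 1.32, 1.39 and 1.20 in replicates 1 to 4, while eligible transcripts had medians of -0.03, 0.00, -0.16 and -0.09. Above 0 in each of 4 replicates were 162 of 184 members (88.0%), where 15.5% of eligible transcripts were, and 103 (56.0%) met the limit of 0.75 in each, where 2.83% did. By limma 139 of 184 members (75.5%) were higher and 1 was lower, where 3.14% of 34696 tested transcripts were called higher and 4.10% lower, and 5.6% and 14.6% of eligible ones. An unadjusted p under 0.05 in either direction was found for 162 members, where it was for 21.3% of tested and 38.2% of eligible transcripts. Of 6359 eligible transcripts edgeR called 182 higher and 520 lower, and DESeq2 439 and 581. The count of 139 fell to 34 without replicate 1, to 80 without replicate 4 and to 84 without the replicate block. In the same settings the eligible transcripts called higher fell from 356 of 6359 to 62, 152 and 156. The median log2 difference of the members stayed between 1.14 and 1.39 in all 13 settings other than those without a replicate.

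The clearest PSD95 enrichments at rest were those of uc009exc.1 and uc029qmx.1, which had the smallest p. For uc009exc.1 (5094 nt) the inputs measured 378, 462, 358 and 336 CPM and the pulldowns 924, 919, 717 and 772 CPM in replicates 1 to 4. Every pulldown was above every input, and the log2 difference was 1.10 ± 0.11 (SE; limma adjusted p = 4.78e-07). For uc029qmx.1 (3200 nt) the inputs were 250.1, 271, 308 and 226 CPM and the pulldowns 698, 851, 1629.7 and 787 CPM, the highest of them in replicate 3, which had 0.632 M reads outside the dominant transcripts. Its log2 difference was 1.62 ± 0.16 (limma adjusted p = 5.43e-07). Both transcripts were higher in the pulldown in 4 of 4 replicates and were called in all 16 alternative settings.

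The members at either end of the rule were followed into the PSD95 libraries as well. Just inside the limit, uc033jel.1 measured 50.5, 68.2, 96.4 and 51.8 CPM in resting PSD95 inputs and 115, 142, 210.4 and 118 CPM in pulldowns, and 62.6, 62.5, 57.1 and 59.5 CPM against 178, 158, 238 and 155 CPM after depolarization. Its pulldowns lay above its inputs in both states, by 0.96 ± 0.15 (limma adjusted p = 0.000172) and 1.29 ± 0.14 (limma adjusted p = 6.09e-07). The neighbouring uc008oys.1 measured 13.5, 2.57, 78.2 and 27.2 CPM in resting PSD95 inputs and 69.8, 66.3, 54.4 and 35.4 CPM in pulldowns, which overlapped, and its log2 difference of 0.92 ± 0.63 did not pass (limma adjusted p = 0.43). At the other end, uc008djw.2 had resting PSD95 inputs of 7.57e-06, 147, 35.0 and 23.4 CPM and pulldowns of 67.3, 239, 176 and 119 CPM, higher in 4 of 4 replicates (limma adjusted p = 0.0246). The member with the largest rule difference, uc007rcw.2, had inputs of 67.3, 0.156, 37.6 and 11.2 CPM and pulldowns of 206, 207, 5.21e-05 and 112 CPM, which dropped to near 0 in replicate 3, and it did not pass (limma adjusted p = 0.256). The size of the difference that chose a member thus did not order its PSD95 result among these 4.

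The 2 members lowest with PSD95 at rest varied between replicates. The transcript uc007gyr.2 (6434 nt) measured 108, 102, 0.542 and 29.1 CPM in the inputs and 5.32e-05, 0.000894, 71.4 and 64.1 CPM in the pulldowns. It was thus lower in the pulldown in replicates 1 and 2 and higher in replicates 3 and 4, and it had under 1 read in 9 of 32 libraries. The limma fit gave it a log2 difference of -6.20 ± 1.55 (adjusted p = 0.0138), and this was the sole member called lower. Without replicate 1 its log2 difference was 1.27. The other, uc011yil.1 (3176 nt), had inputs of 31.6, 84.4, 30.4 and 34.9 CPM and pulldowns of 36.5, 124, 38.4 and 0.0625 CPM, so that replicate 4 alone put it low, and its limma log2 difference was -0.86 ± 1.16 (adjusted p = 0.736).

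After depolarization the members were again higher in PSD95 pulldowns than in their inputs. The median difference was 1.52, 1.31, 1.95 and 1.49 in replicates 1 to 4, against -0.11, -0.06, -0.16 and -0.12 for eligible transcripts. The limit of 0.75 was met in each of 4 replicates by 133 of 184 members (72.3%), where 3.68% of eligible transcripts met it, and 166 were above 0 in each, where 16.5% were. Limma called 157 members (85.3%) higher and 0 lower, where 5.69% of tested transcripts were called higher and 7.08% lower, and 6.64% and 26.7% of eligible ones. No member was called lower by edgeR or DESeq2 either. Of 6359 eligible transcripts edgeR called 225 higher and 824 lower, and DESeq2 486 and 770. The number of members that these 2 tests called higher over input is not given here. By limma 168 members had an unadjusted p under 0.05 in either direction, where 25.7% of tested and 47.8% of eligible transcripts had. Without replicate 1 limma called 92 members higher, where 154 of 6359 eligible transcripts were, against 422 with all replicates. The smallest p again belonged to uc009exc.1, at 568, 579, 461 and 363 CPM in inputs and 1121, 934, 926 and 1044 CPM in pulldowns (log2 difference 0.83 ± 0.07, limma adjusted p = 1.01e-08), and to uc029qmx.1, at 292, 294, 261 and 250.0 CPM against 907, 919, 1545 and 1047 CPM (1.64 ± 0.14, limma adjusted p = 1.25e-08). For both, the lowest pulldown exceeded the highest input.

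With Pan-TurboID after depolarization the labelling was that of the rule but the cultures were not. The median difference over the members was 1.66, 1.27, 1.55 and 1.63, against -0.03, 0.00, -0.07 and 0.09 for eligible transcripts. Here 117 of 184 (63.6%) met the limit in each replicate, where 3.33% of eligible transcripts did, and limma called 137 members (74.5%) higher and 0 lower, where 3.59% of tested transcripts were called higher and 4.45% lower, and 3.98% and 17.3% of eligible ones. Of the members, 162 had an unadjusted p under 0.05, where 22.2% of tested and 38.9% of eligible transcripts had, and edgeR and DESeq2 called 0 lower. Of 6359 eligible transcripts edgeR called 182 higher and 315 lower, and DESeq2 381 and 614. The counts of higher members were 38 without replicate 1, 85 without replicate 3 and 90 without the replicate block. In the same settings the eligible transcripts called higher fell from 253 of 6359 to 47, 117 and 133. Among the inputs of this setting was a library with 0.613 M reads outside the dominant transcripts. Without it and the other 3 libraries under 2 M, 128 members and 216 eligible transcripts were called higher.

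The smallest p in this setting belonged to uc008yhm.2 and uc007czv.2. For uc008yhm.2 (3505 nt) the inputs were 37.8, 35.1, 61.6 and 34.5 CPM and the pulldowns 139, 109, 181 and 126 CPM, a log2 difference of 1.59 ± 0.20 (limma adjusted p = 1.93e-05). For uc007czv.2 (2605 nt) they were 48.2, 49.3, 58.0 and 34 CPM and 181, 108, 187 and 147 CPM, a log2 difference of 1.57 ± 0.21 (limma adjusted p = 2.82e-05). Inputs and pulldowns did not overlap for either transcript. The same transcripts were called higher with PSD95, by 0.94 ± 0.15 and 1.38 ± 0.18 at rest and by 1.25 ± 0.14 and 1.39 ± 0.14 after depolarization, with limma adjusted p-values of 0.00029, 2.33e-05, 6.15e-07 and 1.18e-07.

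**Figure D2:**
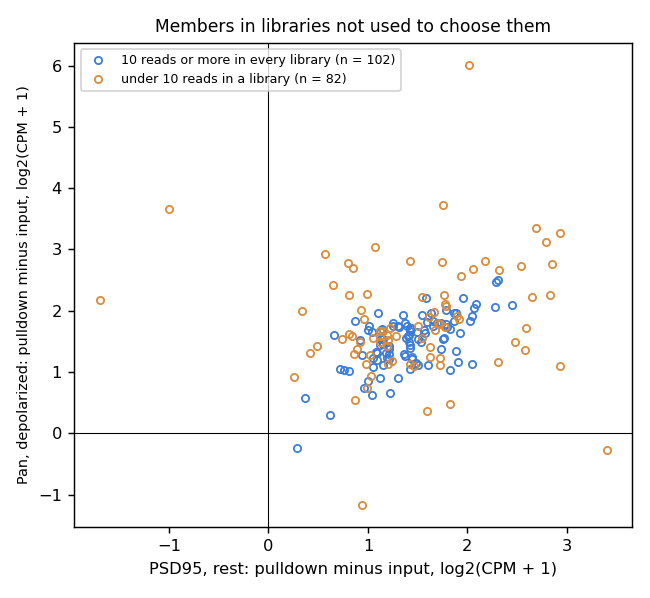
Pulldown minus input for each member, as the mean over 4 replicates on the log2(CPM + 1) scale, with PSD95 at rest (horizontal axis) against Pan after depolarization (vertical axis), which share no library. The 102 members with 10 reads or more in every library form a band above 0 on both axes apart from 1 member, and the 82 with fewer reads in a library scatter more widely.

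Across the 3 settings that did not choose them, 123 members (66.8%) were called higher in all 3, 24 in 2, 16 in 1 and 21 in none. Of the 6173 other eligible transcripts 0.842% were called higher in all 3, 1.78% in 2, 3.50% in 1 and 93.9% in none. Of the 21 called in none, 18 had under 1 read in at least 1 library, whereas 6 of the 123 called in all 3 did. The 12 replicate differences of these settings were all above 0 for 150 members (81.5%), against 257 of the 6173 other eligible transcripts (4.16%), and all at 0.75 or more for 70 members (38.0%), against 24 (0.389%). Among the 150 members with at least 1 read in every library, limma called 128 higher with PSD95 at rest, 145 with PSD95 after depolarization and 129 with Pan after depolarization, and 0 lower in each. Of the 4630 other eligible transcripts with as many reads, 4.51%, 5.27% and 2.18% were called higher and 19.5%, 35.3% and 23.2% lower.

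The size of the enrichment correlated between settings with no library in common, among members and among eligible transcripts alike. Among members the degree varied with read number. Over all 184 members, the mean difference with PSD95 at rest and that with Pan after depolarization had a Pearson r of 0.21 and a Spearman rho of 0.34. Over all eligible transcripts these were 0.32 and 0.39. Over the 102 members with 10 reads or more in every library these were 0.64 and 0.54. PSD95 at rest against PSD95 after depolarization gave 0.69 and 0.65 over the 102, and 0.51 and 0.57 over all 184. Over eligible transcripts it gave 0.44 and 0.52. Members are not independent replicates and share library depth. Enrichment had little relation to length or reads among members, with Spearman rho of -0.11 and 0.03 for PSD95 after depolarization.

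**Figure D3:**
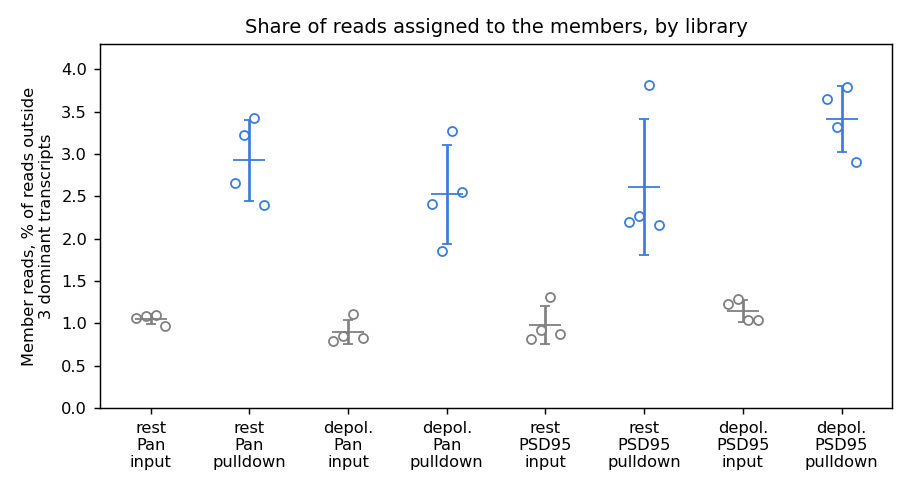
Reads assigned to the 184 members as a percent of reads outside the 3 dominant transcripts (vertical axis) in each library, by group (horizontal axis). Circles are libraries, bars the mean and SD of 4; in the 6 groups that the rule did not use, every pulldown lies above every input, with the PSD95 pulldowns after depolarization at 2.91% to 3.79%, and the resting Pan groups chose the members.

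In the libraries that the rule did not use, the share of reads that went to the members was 1.85% to 3.82% in pulldowns and 0.796% to 1.31% in inputs, with no overlap. In the PSD95 libraries at rest their share was 0.982% ± 0.225 (SD, n = 4) in inputs and 2.61% ± 0.807 in pulldowns, and after depolarization 1.15% ± 0.131 and 3.42% ± 0.391. With Pan after depolarization it was 0.898% ± 0.144 and 2.52% ± 0.582. The resting PSD95 pulldown of replicate 3, a library with 0.632 M other reads, stood at 3.82%, away from 2.20%, 2.26% and 2.16% in replicates 1, 2 and 4.

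PSD95 and Pan enrichment were then compared directly after depolarization, by correcting each pulldown for its own input. No member was called by limma in either direction, where 0 of 34696 tested transcripts were, and 13 members had an unadjusted p under 0.05, where 6.48% of tested and 6.48% of eligible transcripts had. edgeR and DESeq2 called 0 as well, where of 6359 eligible transcripts edgeR called 0 and DESeq2 8 higher and 11 lower. The members' median of this difference was -0.09, -0.02, 0.35 and -0.15 on the log2(CPM + 1) scale in replicates 1 to 4, against -0.09, -0.06, -0.07 and -0.23 for eligible transcripts. On the limma scale it was -0.09, against -0.06 for eligible transcripts, and over 13 settings the members' median minus the eligible one ran from -0.16 to 0.14, so that its direction turned with the setting. The smallest p belonged to uc007wbn.1 (4688 nt), at -1.09 ± 0.37 (limma adjusted p = 0.69), and uc007azy.1 (3464 nt), at 0.94 ± 0.34 (limma adjusted p = 0.715). For uc007azy.1 the Pan pulldowns of 100.2, 74.6, 32.1 and 73.3 CPM lay near their inputs of 69.9, 91.3, 62.4 and 87.2 CPM, while the PSD95 pulldowns of 79.4, 129, 86.3 and 106 CPM lay above their inputs of 62.5, 51.6, 67.3 and 25.4 CPM.

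Without the correction for input, 2 members were called higher in PSD95 than in Pan pulldowns after depolarization. Over all members the median difference was 0.50, 0.68, 0.14 and 0.18 in replicates 1 to 4, against -0.04, -0.03, -0.12 and -0.02 for eligible transcripts. No member was called lower by limma, 0.0184% of 32553 tested transcripts were called higher and 0.111% lower, and 92 members had an unadjusted p under 0.05, where 11% of tested and 19.3% of eligible transcripts had. The 2 called members were uc029uri.1 (3554 nt), at 1482, 1402, 1349.8 and 1012 CPM with PSD95 and 979, 695, 881 and 769 CPM with Pan, and uc008slb.1 (4551 nt), at 486, 561, 413 and 372 CPM and 361, 283, 359.5 and 244 CPM. For both transcripts each PSD95 pulldown was above each Pan pulldown, by 0.59 ± 0.10 (limma adjusted p = 0.0467) and 0.48 ± 0.08 (limma adjusted p = 0.0482). For uc029uri.1 the inputs overlapped, at 694, 596, 380.0 and 444 CPM with PSD95 against 597, 543, 445 and 508 CPM with Pan. The means of these inputs were 528 and 523 CPM. For uc008slb.1 the inputs also overlapped, at 219, 303, 121 and 134 CPM against 158, 118, 150.4 and 102 CPM. The means there were 194 CPM with PSD95 and 132 CPM with Pan. In both transcripts the direction of the input difference varied between replicates. The call was lost for both with edgeR, without the replicate block and without any 1 of the 4 replicates, while DESeq2 called 14 members higher. Of 32553 tested transcripts edgeR called 1 and the fit without the block 0. DESeq2 called 32 of 6359 eligible transcripts higher.

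**Figure D4:**
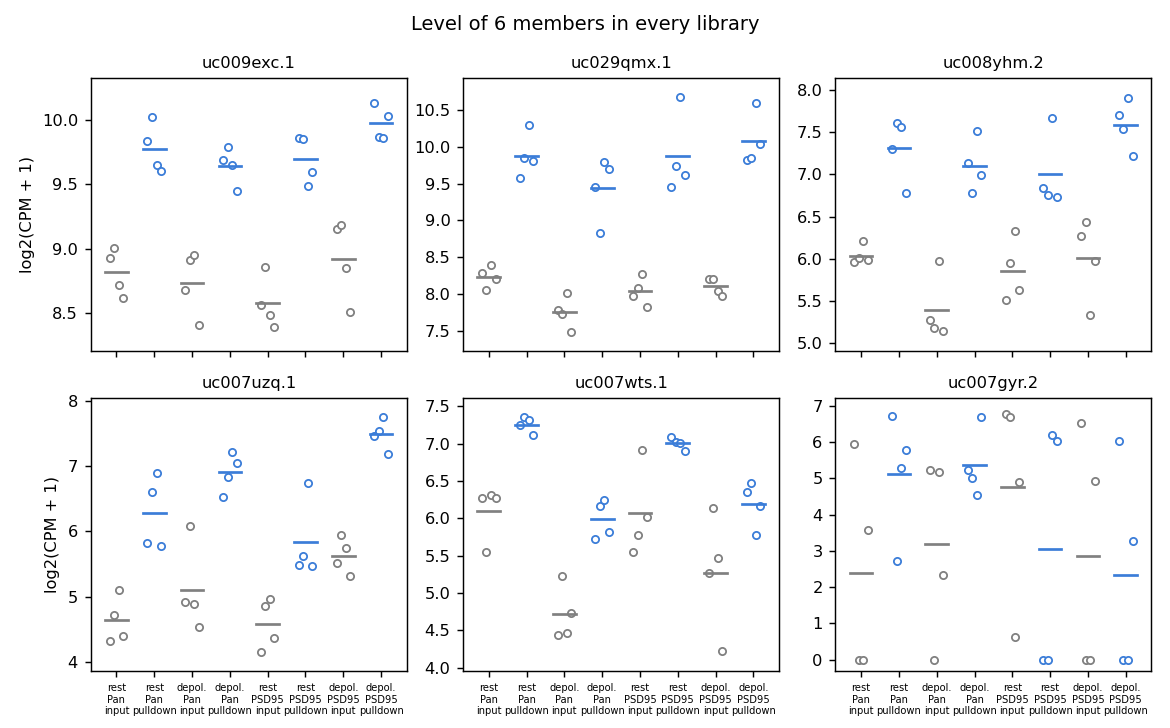
Level of 6 members on the log2(CPM + 1) scale (vertical axes, each with its own range, not starting at 0) in every library of the 8 groups (horizontal axes). Circles are libraries and lines group means; inputs are grey and pulldowns blue. The 4 members uc009exc.1, uc029qmx.1, uc008yhm.2 and uc007uzq.1 are higher in each kind of pulldown. The transcript uc007wts.1 is lower in depolarized than in resting pulldowns, and the mean CPM of its inputs was lower after depolarization too. The transcript uc007gyr.2 is at 0 in some libraries and high in others of the same group.

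The response to depolarization was read from the PSD95 libraries, none of which entered the rule beyond its limit on mean reads. In the pulldowns, the members' median change was 0.68, 0.50, 0.04 and 0.47 on the log2(CPM + 1) scale in replicates 1 to 4, against -0.05, -0.01, -0.01 and -0.01 for eligible transcripts. Limma called 71 of 184 members (38.6%) higher after depolarization and 8 (4.35%) lower. Among all 32553 tested transcripts 3.89% were called higher and 4.07% lower, and among eligible ones 4.95% and 14.6%. Above 0 in each of 4 replicates were 66 members (35.9%), where 14.8% of eligible transcripts were. The count depended on the test and on single replicates, at 2 higher and 1 lower with edgeR, 30 and 7 with DESeq2, 9 and 2 without the replicate block, 0 with the states that the descriptions give, and 0, 13, 48 and 22 higher without replicates 1, 2, 3 and 4. Among eligible transcripts 315 were called higher and 931 lower in the main fit. There edgeR called 35 and 84, DESeq2 262 and 670, and the fit without the block 48 and 177. With the descriptions' states 0 of 32553 tested transcripts were called. Without replicates 2, 3 and 4, 62, 162 and 76 eligible transcripts were called higher. Without replicate 1 limma called 0 of 6357 eligible transcripts in either direction, and 1032 of them had an unadjusted p under 0.05. The members' median stayed between 0.29 and 0.55 over 14 settings other than those without a replicate, and exceeded the eligible median by 0.42 to 0.66. Without replicate 1 it was 0.31 and exceeded the eligible median by 0.40.

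The members that rose with the smallest p were uc008izq.1 and uc007uzq.1. In the PSD95 pulldowns uc008izq.1 (6037 nt) went from 113, 103, 207 and 112 CPM to 283, 216, 297 and 264 CPM, so that each depolarized library was above each resting one (1.06 ± 0.10, limma adjusted p = 0.000201). For uc007uzq.1 (5599 nt) the pulldowns went from 44.1, 48.3, 106 and 43.2 CPM to 174, 185, 215 and 145 CPM (1.71 ± 0.17, limma adjusted p = 0.000281). Its PSD95 inputs rose as well, from 16.8, 28.0, 30.1 and 19.6 CPM to 44.6, 60.4, 52.9 and 38.8 CPM (1.05 ± 0.21, limma adjusted p = 0.0234). Both transcripts were also called higher by edgeR and DESeq2. Without replicate 1 their log2 changes were 0.92 and 1.60 and did not pass (limma adjusted p = 0.171 and 0.168), and with the states of the descriptions they were 0.78 and 1.08 and did not pass (limma adjusted p = 0.22 and 0.266).

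One of the 8 members called lower was uc007xzz.2, the one with whole reads, whose pulldown values are given above (fell by 0.57 ± 0.13 on the log2 scale, limma adjusted p = 0.0245). The members that fell with the smallest p were uc007wts.1 and uc007fpe.1. Pulldown levels of uc007wts.1 (3428 nt) went from 136, 129, 128 and 119 CPM to 80.4, 87.5, 53.9 and 70.5 CPM and did not overlap (fell by 0.88 ± 0.11 on the log2 scale, limma adjusted p = 0.000999). Pulldown levels of uc007fpe.1 (2436 nt) went from 98.6, 107, 73.1 and 87.0 CPM to 68.4, 57.0, 47.2 and 59.3 CPM, again with no overlap (fell by 0.73 ± 0.11, limma adjusted p = 0.00241). Its PSD95 inputs averaged 40.4 ± 5.39 CPM (SD, n = 4) at rest and 36.6 ± 5.94 CPM after depolarization. Both stayed above their inputs after depolarization, uc007wts.1 by 0.97 ± 0.26 (limma adjusted p = 0.0123) and uc007fpe.1 by 0.49 ± 0.14 (limma adjusted p = 0.0174).

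**Figure D5:**
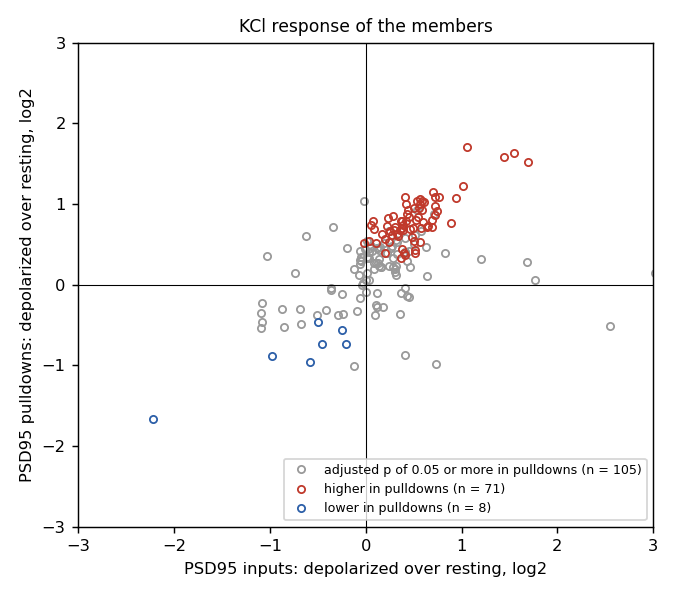
Limma log2 change from rest to depolarization of each member in PSD95 inputs (horizontal axis) and PSD95 pulldowns (vertical axis); 3 members lie outside the axes. Red circles are the 71 members called higher in pulldowns and blue circles the 8 called lower; 70 of the 71 have a change above 0 in the inputs as well.

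In the PSD95 inputs 7 members passed the test, and the replicates differed in direction. The median change was 0.58, 0.48, -0.37 and 0.19 in replicates 1 to 4, with replicate 3 opposite to the others, against 0.04, 0.05, -0.04 and 0.00 for eligible transcripts. Replicate 3 held the depolarized PSD95 input with 1.19 M reads outside the dominant transcripts. Limma called 6 members higher (3.26%) and 1 lower, where 0.904% of 27887 tested transcripts were called higher and 1.09% lower, and 1.82% and 3.44% of eligible ones. An unadjusted p under 0.05 was found for 47 of 184 members, close to its share among eligible transcripts (25.8%), and for 13.9% of tested ones. edgeR called 0, DESeq2 called 12 higher, and without single replicates 0 to 3 were called. Of 6358 eligible transcripts edgeR called 7 higher and 6 lower, and DESeq2 192 and 231. The most read member, uc007nwh.3, went from 615, 657, 1346 and 709 CPM to 1264, 1338, 1117 and 1123 CPM (0.70 ± 0.10, limma adjusted p = 0.00531), and uc008mlz.3 (3732 nt) from 178, 195, 307 and 201 CPM to 299.8, 321, 298 and 299 CPM (0.51 ± 0.10, limma adjusted p = 0.0212). In both transcripts replicate 3 was already high at rest and did not rise. The member called lower was uc007azy.1, which went from 92.3, 119.9, 58.6 and 57.3 CPM to 62.5, 51.6, 67.3 and 25.4 CPM (fell by 0.87 ± 0.18, limma adjusted p = 0.0331), lower in 3 of 4 replicates. These 3 calls were lost with edgeR and without replicate 1, 2 or 4.

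Of the 71 members called higher in the pulldowns, 70 (98.6%) had a limma change above 0 in the inputs, with a median of 0.46 there and 0.76 in the pulldowns. Among other eligible transcripts called higher in the pulldowns, 224 of 242 (92.6%) had a change above 0 in the inputs, and over all members and all other eligible transcripts 76.1% and 44.4% had. Called higher in both fractions were 5 of the 71 (7.04%), against 52 of 243 other eligible transcripts (21.4%). Each pulldown was made from the lysate that gave its input, so both fractions are not independent. Of the same 71 members, 59 (83.1%) were called higher over input in all 3 settings above, where 66.8% of all members and 14 of those 243 (5.76%) were. The PSD95 pulldowns that gave the 71 are also part of these settings, so this overlap is partly built in.

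Whether depolarization changed the PSD95 enrichment itself was tested as the difference between both states. Limma called 0 members, where 0 tested transcripts were called higher and 0.0231% lower, and 11 members had an unadjusted p under 0.05, where 6.74% of tested and 10.9% of eligible transcripts had. edgeR and DESeq2 called 0 members, where of 6359 eligible transcripts edgeR called 0 and DESeq2 6 higher and 14 lower. The median of this difference over members was 0.11, 0.02, 0.32 and 0.24 in replicates 1 to 4, and -0.10, -0.06, 0.04 and 0.00 over eligible transcripts. On the limma scale it was 0.25 and -0.11. Over 13 settings other than those without a replicate, the members' median exceeded the eligible one by 0.21 to 0.37. This shift of the set was not tested. The smallest p belonged to uc007cxc.1 (3445 nt), with depolarized PSD95 inputs of 0, 0, 6.31 and 20.9 CPM, pulldowns of 79.5, 86.0, 77.3 and 75.2 CPM and a limma adjusted p of 0.38. At rest its PSD95 inputs averaged 25.0 ± 20.0 CPM (SD, n = 4) and its pulldowns 58.9 ± 53.0 CPM. Next came uc007jzw.2 (6073 nt), whose PSD95 inputs were 14.4, 13.6, 31.5 and 25.8 CPM at rest and 9.51, 3.00, 12 and 12.8 CPM after depolarization, with pulldowns of 36.3, 53.3, 66.1 and 45.3 CPM and 60.0, 43.0, 80.4 and 64.3 CPM. Its difference was positive in 4 of 4 replicates, at 1.56 ± 0.46 (limma adjusted p = 0.464), and did not pass the threshold.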

How the data were processed

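RNA libraries from inputs and streptavidin pulldowns of primary mouse cortical neurons were analysed. The authors quantified reads with salmon against mm10 UCSC knownGene models, with a version and options not given in the sources used here, and DESeq and limma are listed too in the submitters' processing notes. The deposited files hold expected counts per transcript, in which shared reads are divided among models, and TPM values scaled by the authors' tool to 1000000 per library. Lengths were used as deposited. Expected counts were rounded to whole numbers for testing, CPM used them unrounded with a pseudocount of 1, and TPM served to give levels per length.

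Tests were run in R 4.3.3 with limma 3.58.1, using voomWithQualityWeights after TMM scaling and the filterByExpr filter of edgeR 4.0.16, terms for group and replicate number, and Benjamini-Hochberg adjustment at 0.05 over all transcripts tested. The weights, filter, adjustment and batch term follow the study's methods, where samples of a replicate were processed together and pulldown and input shared a lysate. In the fit to all 32 libraries, the 4 libraries under 2 M had weights of 1.82, 1.86, 1.51 and 1.56. The libraries titled replicate 2 had weights of 0.391 to 0.798. Residuals of libraries with the same number had a mean r of 0.075 in inputs and 0.062 in pulldowns, against -0.024 and -0.019 for different numbers. Pulldown comparisons used 16 libraries, input comparisons 16, and comparisons across fractions 32. In 8 libraries, those titled replicate 2, title and description disagree on the state, and the title was used. Members, rule and lists were chosen with earlier results of these data known. Gene lists and markers written for the case that names were found could not be used. Named members were those with the smallest p, up to 2 in each direction per comparison, the 2 lowest with PSD95 at rest, and those at either end of the rule. Alternatives were DESeq2 1.42.0, the quasi-likelihood test of edgeR, RLE factors, equal library weights, dropping the replicate block, no filter on low counts or one on mean CPM (at least 5), a length correction (lowess span 0.3), the states of the descriptions, no resting Pan libraries, all libraries in 1 model, library sizes without the dominant transcripts, and leaving out each replicate. Leaving out the 4 libraries under 2 M (1000000) other reads, and keeping only members read in every library or with whole reads, were chosen after seeing the data. The tests were tried on simulated counts in which only the resting PSD95 pulldowns were changed. That simulation had no reads shared between models, unlike these data, and nothing is concluded from it here. Python 3.11.15 and matplotlib 3.10.9 were used for the figures.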

Additional observations from a re-analysis of the deposited data

Results flagged for a closer look

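Within groups of 4 libraries, 42 sets of values were examined for a value far from the other 3 by Dixon's test at the 95% level, which chance passes in about 1 of 20 groups, and 2 passed it. The resting PSD95 pulldown of replicate 3 gave 3.82% of its reads outside the dominant transcripts to the members, far from 2.16% to 2.26% in the other 3 libraries. The log2(CPM + 1) difference of uc011yil.1 between PSD95 pulldown and input at rest was -5.08 in replicate 4, far from 0.20, 0.55 and 0.32 in replicates 1 to 3. This transcript was named for being low in the same contrast, so the rate of 1 in 20 does not apply to it.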

How the results depend on the processing

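Members were called higher over input in every setting, and 0 or 1 were called lower. Without the replicate block, which pairs libraries of the same number, the counts of called members were 84 with PSD95 at rest and 90 with Pan after depolarization, against 140 and 137. Eligible transcripts called higher were 156 and 133 there, against 356 and 253. Leaving out each replicate in turn gave 34 to 131, 92 to 150 and 38 to 134 called members for PSD95 at rest, PSD95 after depolarization and Pan after depolarization, lowest without replicate 1. Eligible transcripts called higher were 62 to 291, 154 to 346 and 47 to 216 in the same order, also lowest without replicate 1. For PSD95 after depolarization, the median of all eligible transcripts was -0.32, and -0.13 with RLE factors and -0.12 with library sizes without the dominant transcripts, while the members' median exceeded it by 1.63 to 1.75 over 13 settings. For PSD95 against Pan pulldowns, 2 calls became 0 with edgeR, without quality weights, at a mean CPM of at least 5, without the replicate block, with the length correction, with the states of the descriptions and without the resting Pan libraries, 1 without the 4 shallow libraries, 4 with RLE factors, 6 without the dominant transcripts in library sizes, 14 with DESeq2, 14 with no filter and 23 with all libraries in 1 model, and 0 without any single replicate. For PSD95 inputs, 7 calls became 0 with edgeR, the descriptions' states or no resting Pan libraries, 1 without the block, 3 without the shallow libraries, 12 with DESeq2, 12 without weights and 16 with no filter, and 0 to 3 without single replicates. For PSD95 pulldowns, 79 calls became 3 with edgeR, 37 with DESeq2, 11 without the block and 0 with the descriptions' states, and 0 to 56 without single replicates. With the descriptions' states, 0 of 32553 transcripts tested in pulldowns and 0 of 27887 in inputs were called. The sole member with whole reads was called in each of the 3 enrichments (1 of 1), in the pulldown response (1) and not among the inputs (0) or between pulldowns (0). Without single replicates, the log2 difference ran from -8.67 to 1.27 for uc007gyr.2, above 0 without replicate 1, and from -1.85 to 0.15 for uc011yil.1, above 0 without replicate 4. The causes were not tested. A limit of 0.5 or 1 in place of 0.75 would give 306 or 110 members. Under 1 read in at least 1 library was found for 34 members (18.5%) and 24.8% of eligible transcripts. Under 10 reads in at least 1 library went the other way, at 82 members (44.6%) and 31.5% of eligible transcripts.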
